A study of Mus musculus with 6 samples.

Results

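Open LTR elements were the 9718 distinct ATAC-seq intervals lying more than 1000 bp from a transcription start site (TSS) whose annotation names a long terminal repeat. They were chosen by position and repeat class alone, out of 143365 distinct intervals in all and 123217 beyond 1000 bp, which are called distal intervals here. The cells were EML cells, an established mouse line of blood precursors that is kept in culture, and the annotation was the one the authors deposited. ATAC-seq, in which a transposase cuts accessible DNA, was made on the lin-CD34+ population, which carries the progenitor surface protein CD34 and was separated from lin-CD34- cells by magnetic and flow sorting. It was set beside peaks of 2 factors bound in the lin-CD34+ population, STAT3 and SOX4, and of GABPa, which was precipitated from the lin-CD34- population. The labels name no further treatment or genetic change. Each population also had 1 control library, of which no peak list was used here. Every group was 1 library, so no test between conditions was possible. Shares carry exact Clopper-Pearson 95% intervals in parentheses, which cover counting error only and treat neighbouring intervals as independent.

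LTR elements are the remains of retroviruses that entered the germ line long ago. An intact copy has an LTR at each end, which holds the promoter and enhancer sequences of the virus, around an internal part that holds its genes. Most copies have lost the internal part by recombination and remain as solitary LTRs. The mouse carries several families: ERVL-MaLR is an old, non-coding group that depends on other elements to move, ERVL is related to it, ERV1 resembles gammaretroviruses, and ERVK contains IAP and ETn elements, which can still move in mice. In most cells these sequences are kept shut by DNA methylation and by the TRIM28 and SETDB1 proteins, and some LTRs are known to serve as enhancers or promoters of host genes.

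Of the 9718 open LTR elements, 22 overlapped a RefSeq promoter window (250 bases before to 50 after a gene start, GRCm38.p6), in 22 windows. That is 0.226% (0.142 to 0.342), against 0.37% of all distal intervals and 0.441% of intervals outside repeats. The share was 0.121% (0.0606 to 0.217) for SINE and 0.0692% (0.0225 to 0.1615) for LINE intervals, and both ranges overlap that of LTR elements. These RefSeq starts lay more than 1000 bp from the start the authors' annotation gave as nearest. The genes carried Gm symbols, names for predicted mouse genes, in 20 of the windows, and the others were Smim14 and Filip1. Of the elements, 12 were ERVL-MaLR, 5 ERVL and 5 ERVK, and 4 of the windows were open over their whole length. Shown are 3 windows on ORR1E, the ERVL-MaLR element that recurs in the results that follow, 1 wholly open window beside the immune gene H2-Q8, and the wholly open window of Smim14, a protein-coding gene. Each sequence is the open part of the window from RefSeq, 5′ to 3′ on the strand of the gene, and capitals mark a match to a searched motif.

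Gm35768 on ORR1E, plus strand, chr6:146170696-146170975, mm10: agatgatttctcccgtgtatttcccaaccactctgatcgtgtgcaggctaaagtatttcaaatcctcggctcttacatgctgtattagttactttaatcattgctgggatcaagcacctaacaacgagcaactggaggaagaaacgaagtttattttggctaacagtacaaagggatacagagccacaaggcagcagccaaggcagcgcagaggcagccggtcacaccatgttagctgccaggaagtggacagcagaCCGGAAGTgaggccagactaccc
Gm39888 on ORR1E, plus strand, chr2:101991709-101991979, mm10: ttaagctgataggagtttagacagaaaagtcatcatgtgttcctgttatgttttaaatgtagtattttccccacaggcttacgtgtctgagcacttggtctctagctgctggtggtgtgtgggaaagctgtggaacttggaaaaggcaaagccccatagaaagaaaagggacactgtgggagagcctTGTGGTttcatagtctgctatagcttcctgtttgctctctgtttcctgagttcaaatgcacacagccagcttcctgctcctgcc
Gm34445 on ORR1E, minus strand, chr7:143956457-143956695, mm10: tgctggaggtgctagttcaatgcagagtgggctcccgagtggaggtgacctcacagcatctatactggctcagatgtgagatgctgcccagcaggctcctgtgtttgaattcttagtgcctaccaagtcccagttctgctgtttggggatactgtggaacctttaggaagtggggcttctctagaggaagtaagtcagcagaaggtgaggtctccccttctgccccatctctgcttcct
Gm32252 on MT2B1, plus strand, chr17:35420065-35420364, mm10: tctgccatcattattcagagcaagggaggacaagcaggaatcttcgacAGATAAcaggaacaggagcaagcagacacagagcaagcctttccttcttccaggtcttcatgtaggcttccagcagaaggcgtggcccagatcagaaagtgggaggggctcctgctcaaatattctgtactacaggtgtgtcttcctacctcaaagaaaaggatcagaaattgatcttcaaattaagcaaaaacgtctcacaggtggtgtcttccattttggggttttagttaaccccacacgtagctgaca
Smim14 on MLT-int, minus strand, chr5:65484012-65484311, mm10: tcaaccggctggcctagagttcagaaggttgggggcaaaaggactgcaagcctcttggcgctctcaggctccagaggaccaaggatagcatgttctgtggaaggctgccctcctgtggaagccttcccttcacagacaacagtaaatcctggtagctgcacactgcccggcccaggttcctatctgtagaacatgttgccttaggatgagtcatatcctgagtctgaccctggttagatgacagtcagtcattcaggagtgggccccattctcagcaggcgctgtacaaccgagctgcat

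The motifs were searched on both strands of whole windows. The longer ETS motif CCGGAAGT, the kind of site bound by GABPa, lay in the Gm35768 stretch and in 3.89% of all 32851 RefSeq promoter windows. The Gm34445 and Smim14 stretches held none of the motifs. The RUNX motif TGTGGT lay in the Gm39888 stretch, in 7 of the 22 windows and in 16.8% of all windows. The GATA motif AGATAA lay in the Gm32252 stretch, in 4 of the 22 windows and in 11.2% of all. The STAT motif TTCNNNGAA was found in 2 of the 22 windows and in 8.30% of all, and the SOX motif AACAAT in 1 of the 22 and in 10.7% of all. That SOX match was in the Gm34445 window, outside the open part shown. GGAAGGAA was in none of the 22 windows and in 3.79% of all. A match to these letters is a description of the sequence and not a binding site.

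LTR elements were the most frequent repeat class among distal open intervals. They made up 7.89% (7.74 to 8.04) of distal intervals, against 7.36% for SINE and 5.86% for LINE elements, while 75.8% lay in no repeat. The number of copies of each class in the mouse genome was not used here, so these shares say nothing of how often a copy is open. The list reaches no farther than 5000 bp upstream of a start, and 8790 of the open LTR elements lay in introns and 928 in intergenic DNA upstream of a gene. Of the open LTR elements, 28.6% (27.7 to 29.5) were in the first intron of a transcript, against 25.7% of all distal intervals, 28.9% of SINE and 27.5% of LINE intervals. The median distance from the nearest TSS was 28363.5 bp for LTR intervals, 18861 bp for SINE, 39888 bp for LINE and 22140 bp for intervals outside repeats. Another 54 LTR intervals lay within 1000 bp of a TSS and 9 carried an uncertain class, and neither kind was counted.

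The LTR share was lowest close downstream of a start and rose with distance from it. It was 5.56% (5.29 to 5.85) from 1 to 10 kb downstream, 7.70% from 10 to 50 kb, 8.80% from 50 to 200 kb and 10.6% (9.90 to 11.3) beyond 200 kb. Upstream, between 1 and 5 kb, it was 10.1% (9.52 to 10.7), nearly as high as at the greatest distances. Of the open LTR elements, 10.9% (10.3 to 11.5) lay upstream of their nearest TSS, against 8.52% of all distal intervals, 8.61% of SINE, 8.54% of LINE and 8.27% of intervals outside repeats. By chromosome the share ran from 5.91% (3.93 to 8.48) on X, where only 457 distal intervals were listed, to 9.58% (8.93 to 10.3) on chromosome 13. Among autosomes chromosome 11 was lowest at 6.19% (5.68 to 6.74), and its interval did not meet that of chromosome 13.

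**Figure D1:**
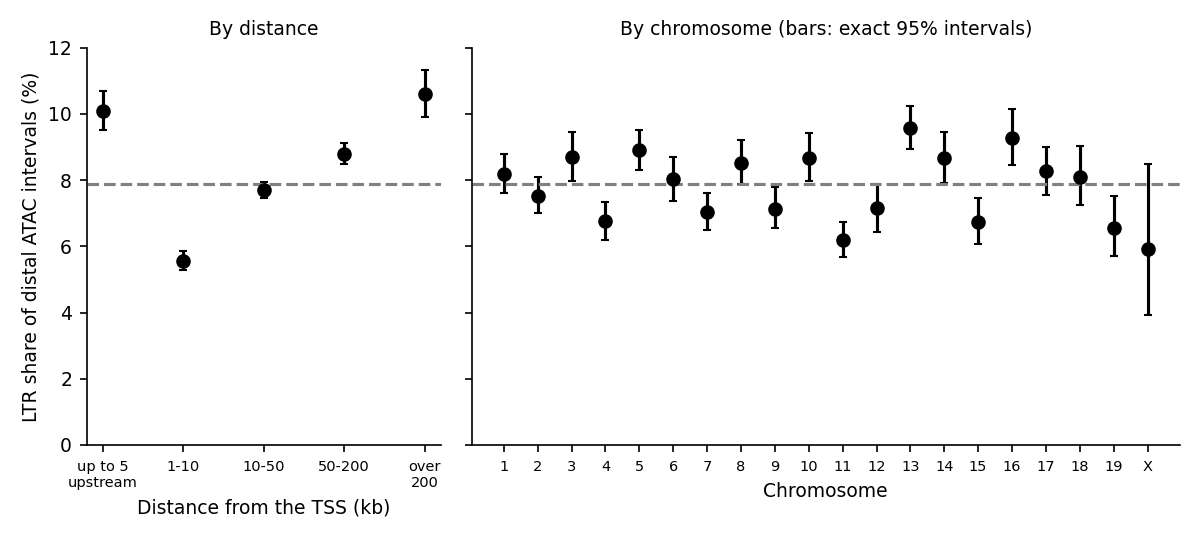
LTR share of distal ATAC-seq intervals in lin-CD34+ cells (%), by distance from the nearest TSS in kb (left) and by chromosome (right; Y, with 14 intervals, is not drawn). Points are shares, bars exact 95% intervals and the dashed line the share over all distal intervals, 7.89%; the lowest distance class is 1 to 10 kb downstream, at 5.56%.

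Open LTR elements were narrow. Their widths ran from 73 to 1402 bp with a median of 119 bp and quartiles of 81 and 185 bp, close to the medians of 117 bp for SINE and 112 bp for LINE intervals and of 125 bp outside repeats. At least 300 bp, called wide here, were spanned by 914 of them, or 9.41% (8.83 to 10.0). This stood beside 11.8% of all distal intervals, 6.97% of SINE, 7.42% of LINE and 12.9% of intervals outside repeats. LTR intervals were thus wide more often than the other large repeat classes and less often than unique sequence, with intervals that did not overlap. Some intervals were listed more than once, wide intervals with a median of 2 entries and narrower ones with 1. More than 1 entry was given for 8.41% of open LTR elements and 11.2% of all distal intervals.

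ERVL-MaLR was the largest family, with 5634 open elements, 58.0% (57.0 to 59.0) of all. ERVK had 2404, or 24.7%, ERVL 1096, or 11.3%, and ERV1 535, or 5.51%. The remaining 49 were 17 Gypsy elements, 13 labelled ERVK?, 11 ERVL?, 5 named LTR only and 3 labelled Gypsy?. The families differed in position. ERV1 elements lay upstream of their nearest TSS in 19.3% (16.0 to 22.9), ERVL in 12.3%, ERVK in 11.5% and ERVL-MaLR in 9.57% (8.81 to 10.4). Among these 4 main families ERV1 also had the shortest median distance from a TSS, 20743 bp, and ERVL-MaLR the longest, 30361 bp. Wide intervals made up 9.98% (9.20 to 10.8) of ERVL-MaLR, 10.3% (8.57 to 12.3) of ERVL and 10.1% (7.67 to 13) of ERV1 elements. In ERVK they made up 7.57% (6.54 to 8.70), a range that lay below that of ERVL-MaLR and overlapped those of ERVL and ERV1.

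Most open elements were LTRs and not the viral interior. An internal part, marked -int in the element name, was named for 877 elements, 9.02% (8.46 to 9.61). In ERV1 the internal share was 25.4% (21.8 to 29.3), in ERVL 11.7%, in ERVL-MaLR 8.24% and in ERVK 6.20%. Internal parts were wide in 7.75% (6.07 to 9.73) and LTRs in 9.57% (8.96 to 10.2), intervals that overlap. Internal parts lay upstream of a TSS in 14.5% and LTRs in 10.6%.

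The 9718 elements carried 501 element names, 108 of which occurred once. MTD led with 746 open elements, 7.68% of all, followed by ORR1E with 464, MTC with 397, ORR1F with 289, ORR1B1 with 275 and MTEa with 260, all ERVL-MaLR. The most frequent ERVK names were RLTR17B_Mm with 256, RMER19B with 117 and MLTR11B with 82. In ERVL they were RMER15 with 189, MT2A with 82 and RMER10A with 77, and in ERV1 MLTR14 with 74, RMER5 with 56 and RMER21A with 37. By the start of the name, ORR1 elements made up 25.7% of open LTR elements, MTA to MTE 23.5% and names starting with MLT 12.6%. The MLT names cross families, since they take in MLTR names such as MLTR11B of ERVK and MLTR14 of ERV1. Names starting with IAP had 31 open elements and those starting with MERVL 48, of which 43 were MERVL_2A-int and 5 MERVL-int. MMVL30 had 9, and ETn and MMERVK10C 1 each. The sources used here do not say how reads that fit several near-identical copies were placed, and its part in these counts was not tested.

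The width of the open interval differed widely between element names. Among the 43 names with at least 50 open elements, which held 63.9% of the total, the share of wide intervals ran from 1.85% for MLTR11A to 29.3% for RMER4B, with a median of 7.84%. RMER4B, an ERVK element, was wide in 17 of 58 cases (18.1 to 42.7). ORR1D2 was wide in 54 of 246, or 22.0% (16.9 to 27.7) with a median width of 164 bp, and ORR1E in 93 of 464 (16.5 to 24.0) with a median of 147 bp. These shares lay above the 11.8% of all distal intervals, with intervals that excluded it. MTC, almost as numerous as ORR1E, was wide in 4.03% (2.32 to 6.46), MTD in 7.77% (5.96 to 9.94), RLTR17B_Mm in 4.69% and RMER19B in 2.56%. The closely named ORR1D1 was wide in 7.96% (4.62 to 12.6), so ORR1D2 and ORR1D1 did not overlap in their intervals. By name group, wide intervals made up 11.9% of ORR1 and 6.66% of MTA to MTE elements. Among rarer names, wide intervals made up 7 of 10 RLTR30D2_MM elements, an ERV1 LTR with a median open width of 543.5 bp, and 9 of 43 RLTR45 elements. These 2 names were singled out after their values were seen. RMER4B and MLTR11A were likewise named for their values, as the ends of the range among the 43 names.

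**Figure D2:**
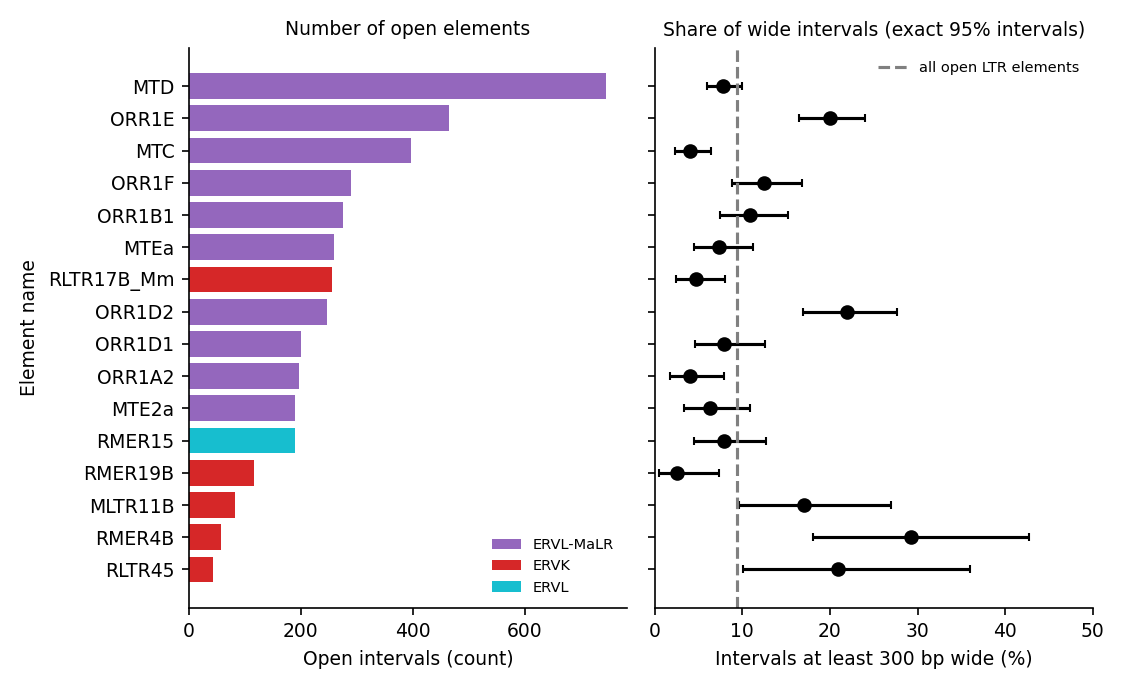
Left, number of open intervals for the 12 most frequent LTR element names and for RMER19B, MLTR11B, RMER4B and RLTR45, coloured by family. Right, share of these intervals at least 300 bp wide (%), with exact 95% intervals, and the share of all open LTR elements, 9.41%, as a dashed line; ORR1E, ORR1D2 and RMER4B lie to its right and MTC to its left.

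The widest open LTR element was an ORR1F of 1402 bp at chr7:34984559-34985960 (mm10), in intron 9 of Pepd, with Cebpg as the gene whose TSS was nearest. It was followed by an MTD of 1293 bp in intron 1 of Gpr160 and an MTE2a of 1177 bp in intron 1 of Mgat5, a glycosyltransferase gene. An MTC of 1176 bp lay in intron 4 of Deptor, an inhibitor of mTOR signalling. ERVK gave an RMER16B2 of 1167 bp upstream of Gm15698 and an RMER17C-int of 1157 bp in intron 4 of Zfp991. The nonagouti coat colour gene, known for retroviral insertions, held an ERVB4_1-I_MM-int of 1151 bp in intron 1. RLTR30D2_MM gave 1127 bp in intron 1 of Mctp1, and the last of the 10 were an MTE2a in Ankrd13a and an MTD upstream of Dzip1.

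Open LTR elements were as often under a factor peak as other distal intervals were. A STAT3 peak overlapped 23 of them by at least 1 bp, 0.237% (0.15 to 0.355), against 0.238% of all distal intervals. A SOX4 peak overlapped 10, 0.103% (0.0494 to 0.189), against 0.102%. A GABPa peak, called in the lin-CD34- cells, overlapped 15, 0.154% (0.0864 to 0.254), against 0.162%. The other large repeat classes stood lower for STAT3, with 0.121% (0.0606 to 0.217) of SINE and 0.125% (0.0570 to 0.236) of LINE intervals, although these ranges overlap that of LTR elements, and 0.261% stood outside repeats. For GABPa they stood higher, with 0.188% (0.109 to 0.300) of SINE and 0.208% (0.116 to 0.342) of LINE intervals. For SOX4 the shares were 0.0993% of SINE and 0.0831% of LINE intervals. These ranges too overlap those of LTR elements. For STAT3 the families gave 11 of 5634 ERVL-MaLR elements, 7 of 2404 ERVK, 1 of 1096 ERVL and 4 of 535 ERV1. The ERV1 share, 0.748% (0.204 to 1.9), was the highest, but its range overlaps those of the other families. ERV1 had no element under a SOX4 peak, which allows a share of up to 0.561%.

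STAT3 overlap went with the width of the open interval. Of the 270 open LTR elements wider than 500 bp, 15 were under a STAT3 peak, 5.56% (3.14 to 9.0), and of those over 300 and up to 500 bp 4 of 638, 0.627%. Of the 5029 elements over 100 and up to 300 bp, 3 were, and of the 3781 up to 100 bp 1 was. Intervals outside repeats followed the same steps, with 3.81% (3.24 to 4.44) above 500 bp and 0.684% in the class below. Above 500 bp, SINE intervals gave 5 of 150 and LINE intervals 5 of 158. At a like width the ranges of LTR elements and unique sequence overlapped. Of the 270 widest elements, 2 were under SOX4 peaks and 1 under a GABPa peak.

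**Figure D3:**
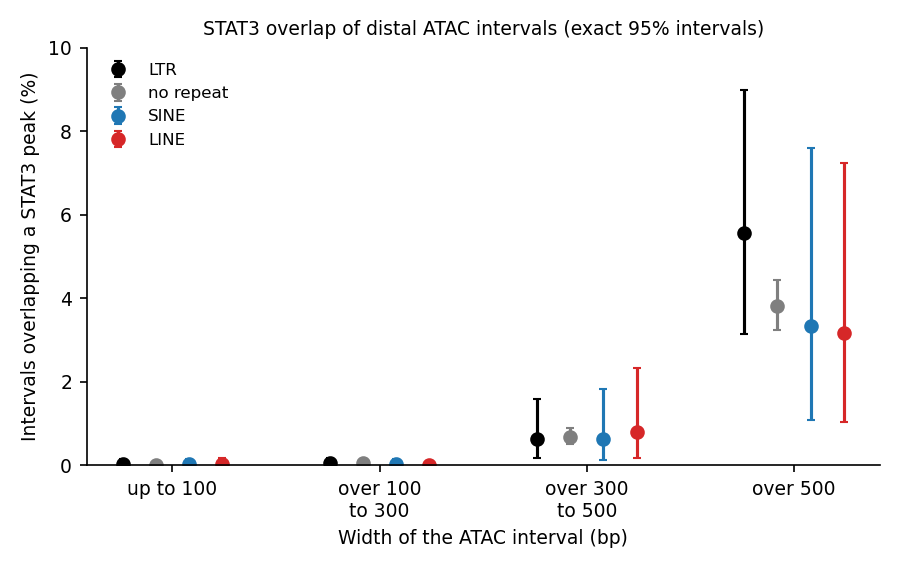
Share of distal ATAC-seq intervals overlapping a STAT3 peak (%), by interval width in bp, for LTR, SINE and LINE intervals and intervals outside repeats. Bars are exact 95% intervals; above 500 bp the LTR share is 5.56% and the share outside repeats 3.81%, with ranges that overlap.

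STAT3, a transcription factor switched on by cytokine receptors, had its highest-scoring open LTR element at chr6:73210445-73210956 (mm10), an ORR1D1 in intron 2 of Dnah6, under a peak of 51 tags and 37.1-fold enrichment. The tags, scores and folds are the authors' own values for each peak. Their false discovery rate for this peak, 4.55%, was the highest among STAT3 peaks over open LTR elements. Score and rate thus ranked the peaks differently. Next by score was the ORR1E at chr15:67234730-67235720, 991 bp wide, in intron 1 of the noncoding gene 1700012I11Rik, with 56 tags and 32.0-fold. This was the only open LTR element under peaks of more than 1 factor, since a SOX4 peak of 8 tags and 14.1-fold lay inside the STAT3 peak. An RLTR45 at chr13:62859118-62859733 and at −1055 bp from the TSS of the gluconeogenesis gene Fbp2 had 57 tags. This was the most for an open LTR element under a STAT3 peak. An MLT1H in intron 1 of Tec, a tyrosine kinase gene of blood cells, had 48 tags. An RLTR30D2_MM in intron 4 of Rabep1 had 39 tags, and an MLTR25C in intron 1 of Zfp1 46. An MTE2a in intron 9 of Sergef had 34 tags and an RLTR50A in intron 13 of Wdpcp 38. All 8 of these were between 249 and 991 bp wide.

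The other 15 STAT3-bound elements had 20 to 52 tags. Over all 23 the median width was 568 bp, from 89 to 991 bp, and 19 were wide. Among all open LTR elements the median was 119 bp, 9.41% were wide and 10.9% lay upstream. Of the 23, 8 lay upstream of the nearest TSS. Among them were an RLTR45 at Etohi1, an RLTR30B_MM at Amn1, an RLTR30D2_MM at 4930509K18Rik and an MER34-int at the MHC gene H2-M5. In introns there was an ORR1E of 609 bp in Tnk2, an RMER4A of 944 bp in Snx4 and an ORR1D1 of 930 bp in Lrch1. Several names recurred: ORR1E in 3 of its 464 open elements, and ORR1D1, RLTR45, RLTR30D2_MM and RLTR50A in 2 each of their 201, 43, 10 and 3. The peak carried the same repeat annotation as the interval in 21 of the 23.

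SOX4, an HMG-box transcription factor of progenitor cells, overlapped narrower open LTR elements than STAT3 did. Its 10 open LTR elements had a median width of 110 bp, 2 were wide and none lay upstream of a TSS. Over all open LTR elements the median was 119 bp, 9.41% were wide and 10.9% lay upstream, so 10 elements are too few to tell a difference. The highest-scoring was an MTD of 109 bp at chr3:30652442-30652550 in intron 4 of Lrriq4, with 15 tags and 23.8-fold. The next was an RLTR15 of 186 bp in intron 1 of the tight junction gene Ocln, with 10 tags. An ORR1A2 in intron 19 of Vav3, a guanine nucleotide exchange factor gene of blood cells, had 9 tags. The others of the leading 8 were an ORR1F in Cntn5 and an RMER10A in Nlrc4, with 11 tags each, and an MLT1C in Mapk8, an RMER10A in Hnrnpc and an MTD in Tnks, with 8 each. The median over the 10 was 8.5 tags, beside 10 tags over the whole SOX4 list and 30 over that of STAT3, so tags are not compared between the factors. Peak and interval had the same repeat annotation in 9 of the 10.

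GABPa, an ETS factor that binds many promoters of housekeeping genes, was measured in the other population, lin-CD34-. Its 15 open LTR elements had a median width of 137 bp and lay under peaks of 10 to 60 tags. GABPa peaks were long, with a median of 1021 bp over the whole list against 311 bp for STAT3 and 167 bp for SOX4, and the peak had the same repeat annotation in 6 of the 15. The centre of the peak lay inside the open interval in 2 of the 15, against 22 of the 23 for STAT3 and 9 of the 10 for SOX4. The highest-scoring was an RMER13A2 of 75 bp at chr9:106791084-106791158, at −1908 bp from the TSS of Rad54l2, with 60 tags. Its peak, 3432 bp long, was itself annotated to the promoter of that gene. An RLTR48C in intron 1 of Cpsf2, a gene of mRNA cleavage, had 17 tags and an MTEa in intron 15 of Phkb 32. An RLTR11A2 in Ttc23l had 39 tags, an MLTR31E_MM near Tmem161b 14 and an ERV3-16A3_LTR in intron 9 of the ephrin receptor gene Ephb1 36. An MTD upstream of Champ1 had 21 tags, under a peak annotated to that promoter, and an ORR1C1 in intron 1 of Syndig1 had 16. The only RLTR10-int and both MMVL30-int elements among the 15 had 14, 23 and 13 tags.

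**Figure D4:**
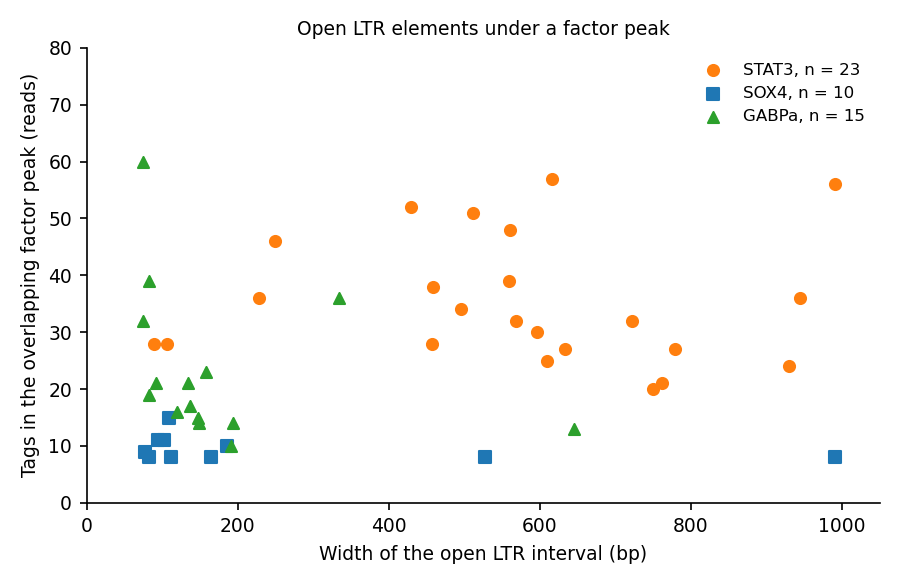
Open LTR elements under a factor peak, with the width of the open interval in bp (horizontal axis) against the tags in the overlapping peak in reads (vertical axis). Each point is 1 element and factor. STAT3 elements (23) are mostly at least 300 bp wide, and those of SOX4 (10) and GABPa (15) lie mostly below 200 bp. The widest, 991 bp, is under both a STAT3 and a SOX4 peak.

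Seen from the binding lists, LTRs took a like share of distal peaks for each factor, but the families differed. LTR elements were named for 40 of 469 distal STAT3 peaks, 8.53% (6.16 to 11.4), 221 of 2856 for SOX4, 7.74% (6.78 to 8.78), and 164 of 2171 for GABPa, 7.55% (6.48 to 8.75). All 3 ranges contain the 7.89% of the open intervals. SOX4 LTR peaks were 56.1% (49.3 to 62.8) ERVL-MaLR and 29.4% (23.5 to 35.9) ERVK, ranges that contain the 58.0% and 24.7% among open elements. STAT3 LTR peaks were 40.0% (24.9 to 56.7) ERVL-MaLR, 37.5% (22.7 to 54.2) ERVK and 15.0% (5.71 to 29.8) ERV1. Of GABPa LTR peaks, 61.6% (53.7 to 69.1) were ERVK and 20.1% (14.3 to 27.1) ERVL-MaLR, against 24.7% and 58.0% of open elements.

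**Figure D5:**
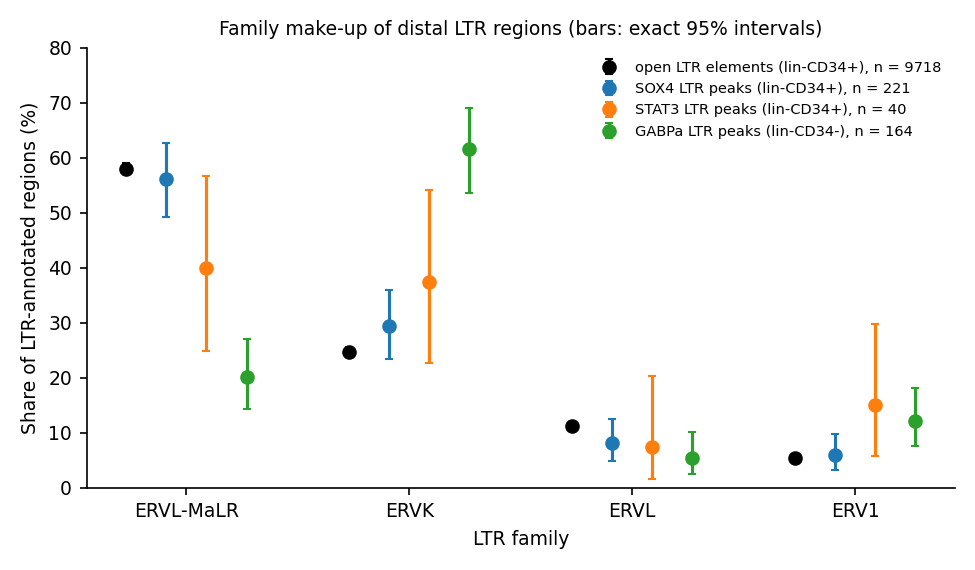
Share of LTR-annotated distal regions (%) in each of the 4 main families, for open LTR elements and for the LTR peaks of each factor. Bars are exact 95% intervals; GABPa peaks, from lin-CD34- cells, are mostly ERVK (61.6%), while open elements are mostly ERVL-MaLR (58.0%).

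STAT3 LTR peaks were in open chromatin as often as all distal STAT3 peaks, and more often than the LTR peaks of SOX4 and GABPa. The same order held among all distal peaks of the 3 factors, so it was not particular to LTR peaks. An ATAC interval of any kind overlapped 25 of the 40 STAT3 LTR peaks, 62.5% (45.8 to 77.3), against 62.5% of all distal STAT3 peaks, 28.9% (16.4 to 44.3) in SINE, 45.5% (24.4 to 67.8) in LINE and 67.6% (62.4 to 72.5) outside repeats. By family these were 13 of 16 in ERVL-MaLR, 7 of 15 in ERVK, 4 of 6 in ERV1 and 1 of 3 in ERVL. Both peaks were open for ORR1D1, ORR1E, RLTR45, RLTR30D2_MM and RLTR50A, and neither for RMER6A. For SOX4 13 of 221 LTR peaks were open, 5.88% (3.17 to 9.85), against 4.38% of all its distal peaks, 2.10% (1.01 to 3.83) in SINE, 3 of 215 (0.289 to 4.02) in LINE and 5.17% (4.20 to 6.28) outside repeats. All 8 of the highest-scoring STAT3 LTR peaks were open, the one with most tags, 98, on an MTEb nearest 1700024P16Rik. The ATAC interval under this MTEb peak was not itself counted as an open LTR element. Among the 8 highest-scoring SOX4 LTR peaks only the MTD at Lrriq4 was open. For GABPa 9 of 164 were open, 5.49% (2.54 to 10.2), against 8.34% of all its distal peaks, 12.4% (9.04 to 16.4) in SINE, 2.70% (1.58 to 4.29) in LINE and 11.2% (9.22 to 13.4) outside repeats. The 2 populations differ for GABPa, so a peak outside open lin-CD34+ chromatin cannot be told apart from 1 that is open in lin-CD34- cells alone.

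The ERVK share of GABPa came largely from RLTR10. This ERVK element accounted for 70 GABPa peaks, 42.7% of its LTR peaks, with 25 annotated to RLTR10 and 45 to RLTR10-int. They lay on 19 chromosomes and nearest to 68 genes and held 10 to 25 tags with a median of 14. Of the 70, 1 overlapped an open interval, 1.43% (0.0362 to 7.70), against 8.34% of all distal GABPa peaks. For GABPa peaks in LINE elements the share was 2.70% (1.58 to 4.29), a range that overlaps that of RLTR10. The peaks were from lin-CD34- cells and the open intervals from lin-CD34+ cells. Among open LTR elements the exact name RLTR10 had none and RLTR10-int 4. All names starting with RLTR10, which include subtypes such as RLTR10A and RLTR10D, had 23 open elements. The highest-scoring GABPa LTR peak, of 93 tags, was on an RMER6B nearest Efcc1 and not in open chromatin. MMVL30-int was the next most frequent name, with 9 GABPa peaks, 2 of them open, and 9 open elements.

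Open LTR elements were spread over many genes, and long genes held most per gene. At least 1 was nearest to 5244 of the 20350 genes named in the ATAC list, 25.8%. Of these genes 3200 had 1 element, 296 had 5 or more and 49 had 10 or more. Genes with an element had a median length of 46.3 kb, those with distal intervals but no LTR element 16.1 kb and the 49 genes 526.9 kb. Tmem132d had 24 of its 117 distal intervals on LTRs, Caln1 22 of 80, Wbscr17 20 of 99 and Negr1 19 of 84. The noncoding gene 9330111N05Rik had 18 of 137, Rbms3 18 of 139, Spock1 18 of 146 and Cntnap5c 17 of 59. Cdh13, Kif26b, Ptprn2 and Wwox followed with 16 each. Several of these, such as Negr1, Cntnap5c and Cdh13, encode adhesion proteins known from the nervous system. The densest stretch of at most 50000 bp lay at chr13:81034978-81072944 near 9330111N05Rik, where 10 of 22 distal intervals were LTR elements, 3 of them ERVB5_1-I_MM-int. At chr1:177725362-177750959 near 1700016C15Rik, 7 of 11 were, with 5 from MERV1_I-int. Over the genome 304 elements lay under 500 bp from the previous one, and 195 of these shared its element name.

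Genes of blood cells were tallied from lists of genes known in this tissue, and the named ones are those with most elements. As a check of the label, an open promoter was listed for 10 of 10 precursor markers, including Cd34, Kit and Gata2, for 5 of 5 mast cell and megakaryocyte, 3 of 5 neutrophil and monocyte, 3 of 6 lymphoid and 1 of 5 erythroid markers. It was also listed for 2 of 6 genes of other tissues, Myod1 and Krt5. Among 35 blood transcription factor genes in the list, 7 had an open LTR element, and 18 of their 569 distal intervals were LTR elements, 3.16% (1.89 to 4.95), against 7.89% over all genes. Erg, an ETS factor gene of stem cells, had 6 of 40, Etv6 4 of 59 and Runx1 3 of 55. The Runx1 set included an MTEb of 351 bp in intron 2 at chr16:92807671-92808021. Lmo2, a bridging protein of the GATA and TAL1 complex, had 2 MLTR11B elements upstream, at −2248 and −2015 bp from its TSS. Stat3 itself held an RLTR11A2 of 329 bp in intron 1. Sox4 with 2 distal intervals and Tcf7 with 8 had none, and Gabpa was not listed with any interval.

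Receptor and surface marker genes were near the average of all genes, with 14 of 191 distal intervals, 7.33% (4.07 to 12), in 10 of 26 genes. Cd48, a surface protein of blood cells, had 3 of 7, an ORR1B2 upstream, an MT2B1 in intron 1 and an MTEa in intron 3. Kit, the stem cell factor receptor gene, had an ORR1F in intron 5 and an ORR1E of 320 bp in intron 7. Tek, a receptor gene of stem cells and endothelium, had an ORR1E of 328 bp in intron 1, and Il6st, the signalling chain through which interleukin 6 activates STAT3, had an LTR40b and an ORR1A2. Erythroid genes gave 7 of 94, all in Fech, the last enzyme of heme synthesis, with 3, and in the membrane skeleton genes Ank1 and Sptb with 2 each. Mast cell and megakaryocyte genes gave 7 of 63, 11.1% (4.59 to 21.6), with 4 at Vwf, an ORR1E of 304 bp upstream of the chymase gene Cma1, 1 in Hdc and 1 at Treml1. Neutrophil and monocyte genes gave 5 of 56, among them an RLTR9B of 465 bp at −1252 bp from the TSS of the Fc receptor gene Fcgr3, and lymphoid genes 4 of 132, 3.03% (0.832 to 7.58), with 2 in Ebf1. Genes that silence retroviruses gave 4 of 65, with 2 in Chaf1b and 1 each in Chaf1a and Dnmt3a, and genes of other tissues 1 of 56.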

How the data were processed

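Processed files of 4 libraries were used: the ATAC-seq interval list and the STAT3, SOX4 and GABPa peak lists. Build mm10 and the tools Bowtie2, MACS2, HOMER, Picard, SAMtools and CASAVA 1.7 are named, without roles, per the submitters' processing notes. In the peak lists the authors deposited tag counts, which are reads in each peak, a score that is a scaled negative log10 p-value, a fold enrichment ratio and a false discovery rate in percent, per the file headers. The ATAC list holds positions and annotation only. The sources used here give neither library totals nor whether reads were shifted for the transposase. The median peak held 30 tags for STAT3, 10 for SOX4 and 14 for GABPa, the only view of depth.

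Repeated entries were merged to distinct intervals. Peaks overlapped when they shared at least 1 bp. Positions are 1-based on mm10. Wide means at least 300 bp. Shares have exact 95% binomial intervals (scipy 1.17.1, pandas 2.3.3, Python 3.11.15); overlaps and shares were tested on simulated data. Where a count was 0, the limit given is 3 counts of the total. Gene lengths came from RefSeq GRCm38.p6 and matched 96.2% of genes with distal intervals. The intron's host gene was read from its transcript accession; it was the nearest gene in 87 of 94 named elements. Elements and genes were named by rule: elements under 2 or more factors, up to 8 per factor by score, the 12 most frequent names and 3 per family, the 10 genes with most elements (12 with ties), up to 4 genes per list, the 10 widest, and elements in RefSeq promoter windows. Outside this rule, RMER4B, MLTR11A, RLTR30D2_MM and RLTR45 were named in the width comparison for their values. The members and lists were chosen with earlier results of these data known. No genome sequence was used here, so motifs were searched in promoter windows only.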

Additional observations from a re-analysis of the deposited data

How the results depend on the processing

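Of 64 alternatives to 12 results, 48 stayed within the main 95% interval, or, for the count of genes, within 1.5 times. No paired analysis was possible because each group had 1 library. The planned motif shares of peaks were not run, since no genome sequence was used here. The LTR share of distal intervals, 7.89%, was 7.55% when every entry counted, 8.10% beyond 5000 bp, 6.82% with no distance limit, 7.58% among intervals wider than the median and 8.74% after joining neighbours under 500 bp apart. Beyond 5000 bp the ERVL-MaLR share was 59.2% and the ERV1 share 4.83%, and among wider intervals the ERVK share was 23.6%. With peaks above the median score the overlap was 0.134% for STAT3, 0.0412% for SOX4 and 0.0823% for GABPa. For GABPa it was 0.0206% when the peak centre had to lie in the interval and 0.0515% with peaks set to 200 bp. Among intervals at least 300 bp wide, an alternative chosen after seeing the data, it was 2.08% for STAT3 and 0.219% for SOX4. The LTR share of STAT3 peaks was 4.52% with no distance limit, that is, with peaks near a TSS counted in. Where these values moved, the cause was not tested, beyond the fewer peaks or intervals that each choice leaves. The tag counts, with a SOX4 median of 10, and the single library per group limit every overlap.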
